A study of Danio rerio with 25 samples.

Results

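MicroRNA levels in the brains of male zebrafish (Danio rerio) were compared between the last 2 ages sampled, 42 and 36 months. The comparison took every library labelled 3.5 years, 5 libraries of 42 months, and every library labelled 3 years, 5 libraries of 36 months. They are 10 of the 25 small RNA libraries of a series that also covers 6, 12 and 24 months. All 10 are labelled brain, with no dissection details, and come from males of the strain AB JxTü. The 36-month fish carried Tg(pu.1:GFP), in which the promoter of the myeloid transcription factor gene pu.1 drives green fluorescent protein. The 42-month fish carried Tg(wt1a:GFP), driven by the promoter of wt1a, a gene known for its role in the kidney. The line therefore changes with the age, and age and line cannot be told apart in any difference given here. Each title holds a single number, and nothing states that the libraries are separate animals. A p-value here therefore sets a difference only against the scatter between libraries, which may be technical. In the main tests of single miRNAs that scatter was estimated from all 25 libraries.

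MicroRNAs (miRNAs) are short RNAs that are cut from hairpin precursors and guide Argonaute proteins to matching sites in messenger RNAs, which are then translated less or degraded sooner. Some are confined to a tissue or cell type, such as miR-124 and miR-9 in neurons and neural progenitors, miR-122 in liver and the miR-200 family in epithelia, so that their levels also report which tissue went into a sample. Others, such as let-7, miR-15, miR-16 and miR-29, are known for their links to differentiation, the cell cycle and extracellular matrix, and are often studied in ageing.

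The deposited table held 346 hairpin entries, and numbered copies of a hairpin were summed by miRNA name. Of the summed miRNAs, 197 had enough counts to be tested. The other 20 had at most 27 counts in any of the 10 libraries, and 10 of them had none. Levels are given in CPM, counts scaled to a common library size by the library's total and a composition factor. A difference is given as the log2 change of 42 against 36 months, with its standard error (SE) from an edgeR quasi-likelihood fit, and a miRNA was called when its Benjamini-Hochberg adjusted p was under 0.05. A miRNA was described as level when the whole 95% interval of its log2 change lay within 1.5-fold in either direction, since a p above the threshold does not show that a level was kept.

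Library totals ran from 5237318 to 20924118 counts at 36 months and from 7141523 to 14020920 at 42 months (two-sided exact permutation p = 0.929, also after adjustment). The libraries detected 204 ± 1.87 miRNAs at 36 months and 202 ± 1.14 at 42 months (SD, n = 5, two-sided exact permutation p = 0.0714, adjusted p = 0.214 over 3 measures of depth). Neuronal miRNAs held 15.4% to 19.0% of the counts at 36 months and 15.4% to 18.7% at 42 months. No limit and no other tissue was set beside this share, so it does not test the brain label. Replicate 1 of 36 months stood apart. Its miR-200 family summed to 8123 CPM against at most 287 CPM in each of the other 4 libraries of that age. Replicate 3 of 36 months was the deepest library, and its miRNAs encoded in Hox clusters summed to 2721 CPM against 19540 to 41868 CPM in the other 4. Values of the miR-200, sensory, skin and Hox miRNAs are therefore also given without the library concerned.

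Of the 197 miRNAs, 1 was called between 36 and 42 months (0.508%), miR-31, which was lower at 42 months. Without adjustment, 29 had a p under 0.05 (14.7%), 9 of them higher and 20 lower at 42 months. The 20 lower ones include all 6 miR-200 miRNAs and all 3 of miR-182, miR-183 and miR-96, which were high in replicate 1 of 36 months. When that library was left out, 19 of 198 had a p under 0.05. By contrast, 118 of the 197 were level (59.9%), and these held 92.7% ± 1.49 of all counts at 36 months and 92.6% ± 0.84 at 42 months (SD, n = 5). For 9 miRNAs the interval lay wholly beyond 1.5-fold, and for the remaining 70 it reached past the margin on at least 1 side. The 9 include all 6 members of the miR-200 family, which was high in replicate 1 of 36 months. Without that library 4 miRNAs lay beyond the margin. Any change counted, 86 miRNAs were higher and 111 lower at 42 months, with a median log2 change of -0.03. DESeq2's Wald test on the same counts called 12 miRNAs, 2 higher and 10 lower. The higher ones were miR-122 and miR-2185. The lower ones were miR-31, miR-738, miR-135b, miR-2184 and the 6 miR-200 miRNAs, which were high in 1 library of 36 months.

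**Figure D1:**
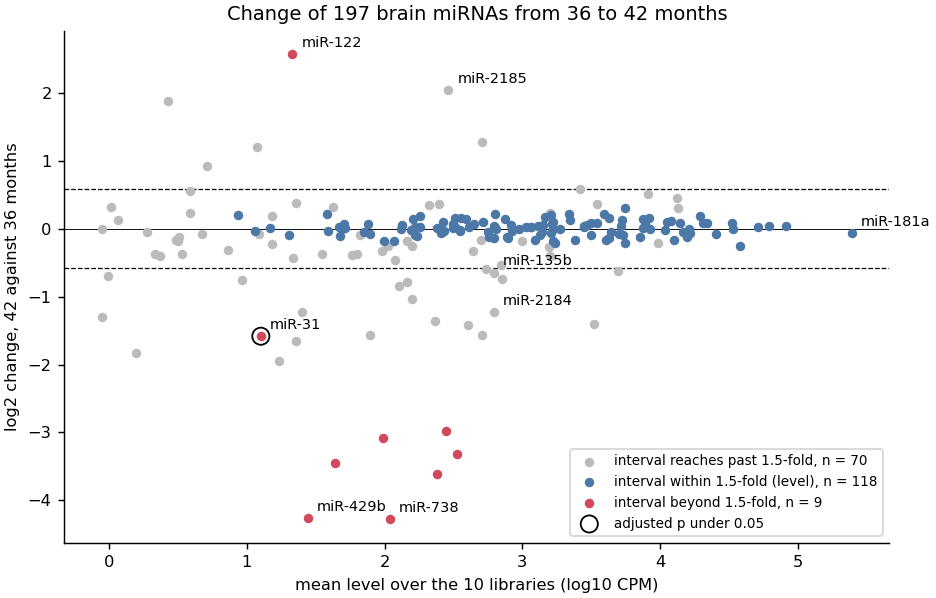
Log2 change of 42 against 36 months (vertical axis) against the mean level over the 10 libraries in log10 CPM (horizontal axis), 1 point per tested miRNA. Dashed lines mark 1.5-fold. The 118 level miRNAs (blue) lie close to 0 by definition, and 1 of them is under 10 CPM. The 9 beyond the margin (red), 6 of them the miR-200 family, lie below 1000 CPM, and miR-31, the called miRNA, is circled.

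How many miRNAs could be placed as level depended on how abundant they were. At 1000 CPM or more, 64 of 75 miRNAs were level and none lay beyond the margin. Between 100 and 1000 CPM, 39 of 66 were level and 4 lay beyond it. Between 10 and 100 CPM, 14 of 35 were level and 5 lay beyond it. Under 10 CPM, 1 of 21 was level. The median SE of the log2 change was 0.11 in the most abundant class and 0.46 in the least abundant. The part of depth in this was not tested.

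The most abundant miRNA of these brains, miR-181a, took 24.7% ± 1.56 of all counts at 36 months and 23.9% ± 1.93 at 42 months (SD, n = 5). Its level was 262807, 224878, 238709, 259996 and 264843 CPM in replicates 1 to 5 of 36 months and 232460, 257402, 224509, 246741 and 234589 CPM in those of 42 months. The ranges overlap nearly whole, and the log2 change was -0.07 (95% interval -0.24 to 0.11). miR-128, a neuron-enriched miRNA linked to excitability, averaged 79877 ± 11945 CPM at 36 months and 82409 ± 9198 CPM at 42 months (SD, n = 5), a log2 change of 0.05 (interval -0.22 to 0.31).

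The 12 most abundant miRNAs, miR-181a, miR-128, let-7a, miR-9, miR-21, miR-26b, miR-26a, miR-27b, miR-132, miR-724, miR-22a and miR-222a, were all level. miR-9, which sets the pace of neurogenesis in the zebrafish brain, had a log2 change of 0.02 (interval -0.14 to 0.18). For let-7a it was 0.03 (interval -0.23 to 0.29) and for miR-26a 0.08 (interval -0.04 to 0.21). miR-132, a miRNA induced by neuronal activity through CREB, had a log2 change of 0.08 (interval -0.16 to 0.31). miR-21, which is linked to injury and inflammation, had the largest change of the 12, -0.26 (interval -0.57 to 0.05), and was as high as 63836 CPM in replicate 2 of 36 months against 30695 to 41378 CPM in the other 4. Its lower bound lies close to the margin, and it was no longer level in 8 of 18 alternative settings. The most abundant miRNA that could not be placed was miR-92b, with a mean of 13338 CPM and a log2 change of 0.30 (interval -0.01 to 0.61).

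miR-31, studied in mammals for its effects on cell invasion and on epidermis, was low in these brains. Its level in replicates 1 to 5 was 16.0, 31.1, 20.4, 17.5 and 9.89 CPM at 36 months and 8.11, 7.22, 5.83, 4.22 and 6.29 CPM at 42 months. All 5 libraries of 42 months lie below all 5 of 36 months. The log2 change was -1.58 (SE 0.31), a level 3.00-fold lower (edgeR adjusted p = 0.0121). These levels rest on 69 to 414 counts per library at 36 months and 45 to 73 at 42 months. In brain as bulk tissue, fewer cells with a miRNA and less of it per cell cannot be told apart.

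Set beside the age before, miR-31 averaged 5.50 ± 1.45 CPM at 24 months, 19.0 ± 7.80 CPM at 36 months and 6.34 ± 1.47 CPM at 42 months (SD, n = 5). Its log2 change was 1.79 for 36 against 24 months (edgeR adjusted p = 0.00303) and 0.21 for 42 against 24 months (edgeR adjusted p = 0.806). These 3 comparisons share libraries in pairs, and the 36-month libraries enter the first of them and the comparison with 42 months. The call was lost without replicate 4 of 42 months (edgeR adjusted p = 0.0640), without replicate 2 of 36 months (edgeR adjusted p = 0.0691), and when the 10 libraries were fitted alone (edgeR adjusted p = 0.0747).

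**Figure D2:**
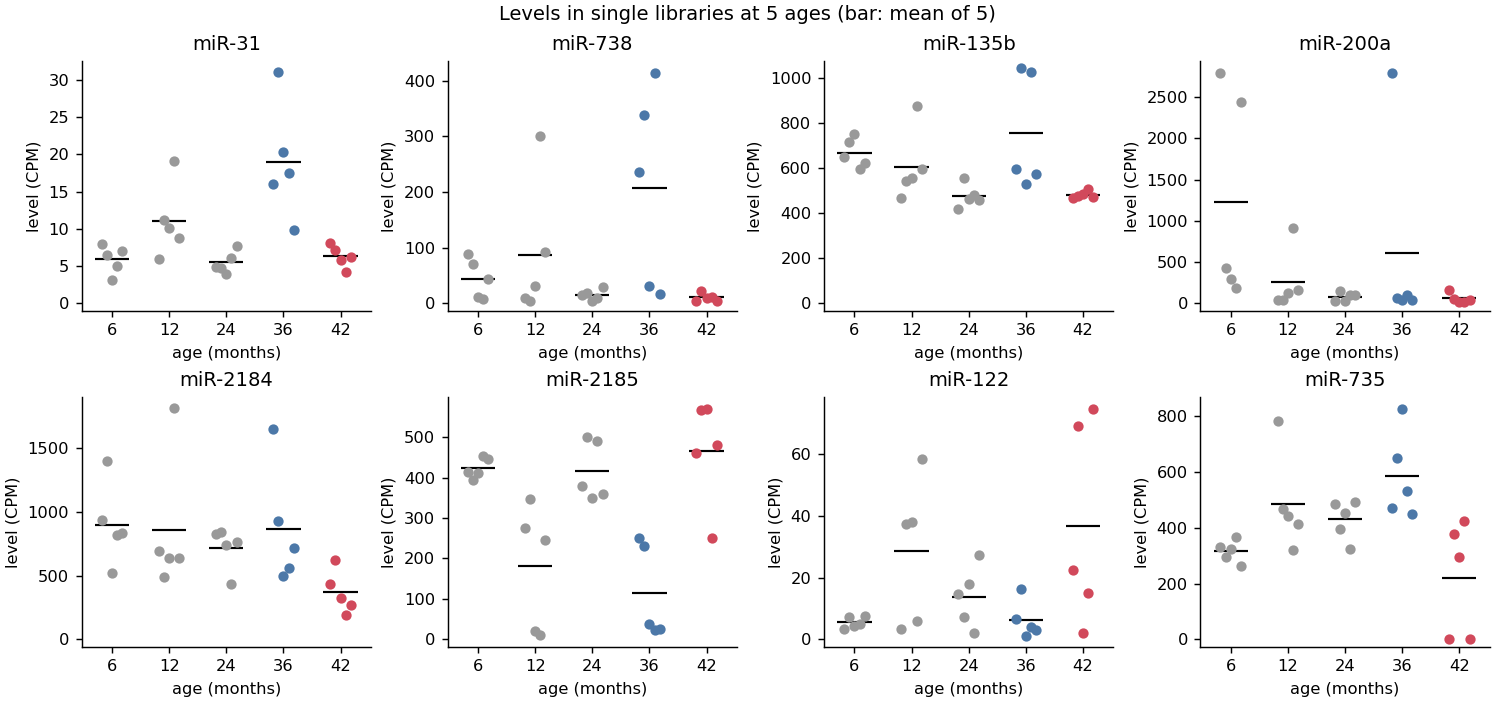
Level in CPM (vertical axis, linear) of 8 miRNAs in each of the 25 libraries, by age in months (horizontal axis), with 36 months in blue, 42 months in red and the other ages in grey. Bars are the means of 5 libraries. miR-31 is higher in all 5 libraries of 36 months than in any of 42 months, and miR-200a is high in 1 of the 36-month libraries.

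Next by p came 3 miRNAs that were lower at 42 months without passing the adjusted threshold. The miRNA miR-738, numbered in fish, was at 236, 337.8, 30.6, 415 and 16.2 CPM in replicates 1 to 5 of 36 months and at 4.87, 22.6, 10.4, 11.1 and 4.06 CPM in those of 42 months. At 36 months 3 libraries lie far above all of 42 months, and the other 2 near or within the 42-month range. On the log2 scale the change was -4.28 (SE 0.96, edgeR adjusted p = 0.0754). It was 3.78 for 36 against 24 months (edgeR adjusted p = 0.0414) and -0.50 for 42 against 24 months (edgeR adjusted p = 0.888).

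miR-135b, 1 of the 3 lettered members of a neuron-enriched family, was at 595, 1044, 528, 1028 and 575 CPM at 36 months and at 467, 475, 484, 509 and 472 CPM at 42 months. The 42-month libraries are tightly grouped and all lie below the lowest of 36 months, whose replicates 2 and 4 stand well above its other 3. Its log2 change was -0.65 (SE 0.18, edgeR adjusted p = 0.0934). Its family members differed less, with -0.39 for miR-135a (unadjusted p = 0.0196) and -0.12 for miR-135c, which was level. Both miR-738 and miR-135b passed the adjusted threshold when replicate 3 or replicate 5 of 36 months was left out (edgeR adjusted p from 0.0330 to 0.0461). These 2 libraries hold the 2 lowest 36-month values of both miRNAs, so leaving either out widens the gap. With another library left out the edgeR adjusted p rose to as much as 0.233 for both. In all, miR-738 passed in 4 alternative settings and not in 15, and miR-135b in 3 and not in 16. By DESeq2's Wald test both passed as well, with adjusted p = 0.000182 for miR-738 and 0.0284 for miR-135b.

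miR-2184 was at 1652, 930, 497, 558 and 716 CPM at 36 months and at 436, 626, 325, 190 and 273 CPM at 42 months. The groups overlap only through replicate 2 of 42 months. This gave a log2 change of -1.23 (SE 0.38, edgeR adjusted p = 0.221). DESeq2's Wald test called miR-2184 (adjusted p = 0.0348). Without replicate 1 of 36 months, its highest library, the log2 change was -0.87 (edgeR adjusted p = 0.470). let-7h, by contrast, was lower by little and tightly measured, at 1647 to 2129 CPM at 36 months and 1480 to 1737 CPM at 42 months, with a log2 change of -0.21 (SE 0.08, edgeR adjusted p = 0.226), and was level.

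The 4 miRNAs whose 2 groups of libraries did not overlap (2.03% of those tested) were all lower at 42 months, miR-31, miR-135b, miR-203a and miR-735. miR-735, named here after its values were seen, is a fish-numbered miRNA. It was at 469, 650, 825, 530 and 450 CPM at 36 months, and at 0, 377, 296, 425 and 0 CPM at 42 months. In replicates 1 and 5 of 42 months it had no count among 8059559 and 7141523, which allows a level of up to 0.374 and 0.419 CPM by a limit of 3 counts, for counting error only. In the other 23 libraries of the series it lay between 262 and 825 CPM. Over the 10 libraries 176 miRNAs averaged 10 CPM or more, and miR-735 was the only 1 of them with a count of 0 in any library. Its log2 change was -1.41 (SE 0.98, edgeR adjusted p = 0.562).

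Among the miRNAs with the smallest p in the upward direction, none was called. miR-122, the main miRNA of hepatocytes, was at 6.64, 16.4, 1.23, 3.91 and 3.01 CPM in replicates 1 to 5 of 36 months and at 22.3, 69.0, 1.94, 15.2 and 74.7 CPM in those of 42 months. Replicates 3 and 4 of 42 months lie within the 36-month range, and replicates 2 and 5 lie far above it. These levels rest on 21 to 115 counts per library at 36 months and 15 to 698 at 42 months. Its log2 change was 2.56 (SE 0.83, edgeR adjusted p = 0.226), the only upward change whose interval lay wholly beyond 1.5-fold. DESeq2's Wald test called miR-122 (adjusted p = 0.0284).

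miR-192 and miR-194a, hairpin neighbours in the genome and abundant in gut and liver, lay in the same direction. miR-192 was at 226, 580, 146, 387 and 140 CPM at 36 months and at 642, 1132, 172, 484 and 1148 CPM at 42 months, with the lowest 42-month value again in replicate 3. Its log2 change was 1.28 (SE 0.48, edgeR adjusted p = 0.226), and that of miR-194a 1.21 (SE 0.54, edgeR adjusted p = 0.290). All 3 tested members of the liver and gut list were thus higher at an unadjusted p under 0.05, while miR-194b had too few counts to be tested. The summed list lay between 142 and 626 CPM at 36 months and between 170 and 1275 CPM at 42 months (two-sided exact permutation p = 0.119, adjusted p = 0.333 over 14 marker lists). How far liver or gut tissue entered these samples was not tested.

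miR-2185, encoded in 3 hairpin copies, was at 250, 231, 38.2, 22.6 and 26.8 CPM at 36 months and at 460, 568, 571, 249 and 481 CPM at 42 months. The 36-month libraries fall in a pair at 231 and 250 CPM and 3 at 38.2 CPM or below, and the lowest of 42 months lies between the pair. The log2 change was 2.03 (SE 0.71, edgeR adjusted p = 0.226). It passed the adjusted threshold when 7 libraries rich in epithelial miRNAs, described below, were left out of the fit (log2 change 2.52, edgeR adjusted p = 0.0446). It also passed by DESeq2's Wald test (adjusted p = 0.0348).

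Both miRNAs of the endothelial miR-126 pair, which guard vessel integrity in zebrafish, were slightly higher at 42 months. miR-126a was at 3734, 3951, 3251, 3548 and 3662 CPM at 36 months and at 4260, 4367, 4526, 3751 and 4198 CPM at 42 months. Only replicate 4 of 42 months falls within the 36-month range. The log2 change was 0.22 (SE 0.08, edgeR adjusted p = 0.226), and for miR-126b it was also 0.22 (SE 0.10, edgeR adjusted p = 0.290). Both were level by the 1.5-fold margin. The summed pair gave a two-sided exact permutation p of 0.0159 (adjusted p = 0.222 over 14 marker lists).

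miR-153c, of a family that in zebrafish acts on synaptic vesicle release, ranged from 4257 to 5687 CPM at 36 months and from 4897 to 7989 CPM at 42 months, a log2 change of 0.30 (SE 0.12, edgeR adjusted p = 0.242). miR-23b had a log2 change of 0.21 (edgeR adjusted p = 0.282) and miR-146b, a brake on NF-kappaB signalling, of 0.36 (edgeR adjusted p = 0.282). miR-459 was the 10th in the upward direction with 1.87 (SE 0.91, edgeR adjusted p = 0.346), from at most 8.11 CPM in any library. miR-153c and miR-23b were level, and miR-146b could not be placed.

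**Figure D3:**
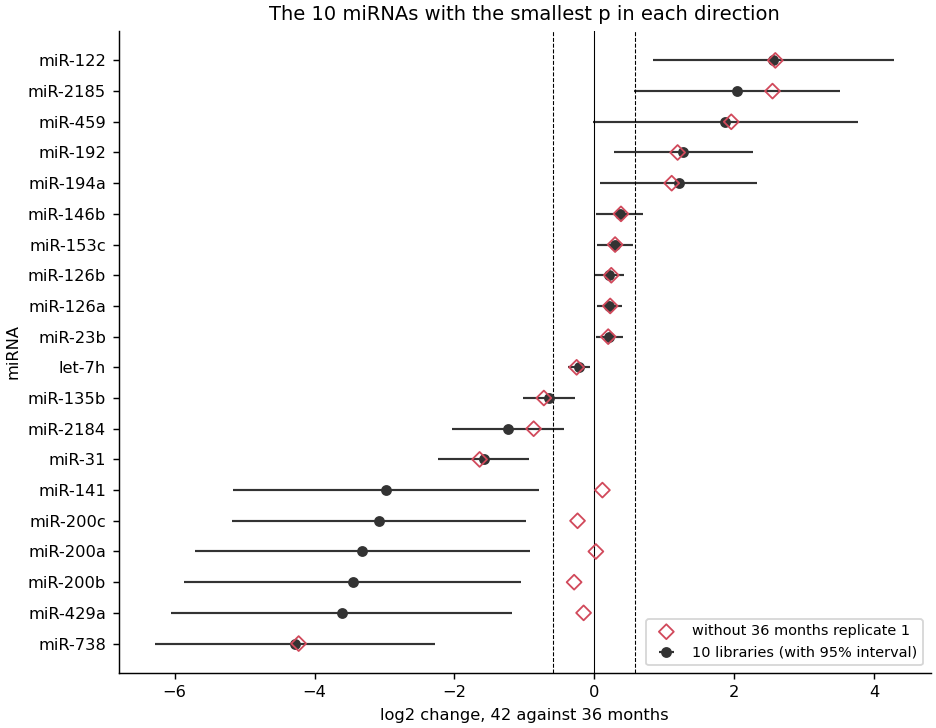
Log2 change of 42 against 36 months with its 95% interval (black) for the 10 miRNAs with the smallest p in each direction, and the same change without replicate 1 of 36 months (red diamonds). Dashed lines mark 1.5-fold. Without that library miR-200a, miR-200b, miR-200c, miR-141 and miR-429a move to between -0.29 and 0.12, while miR-31 and miR-738 stay below and miR-122 above the 1.5-fold lines.

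Of the 10 miRNAs with the smallest p in the downward direction, 5 were members of the miR-200 family, which keeps epithelial cells in their state by repressing ZEB factors and is abundant in olfactory epithelium and skin. miR-200a was at 2789, 66.7, 35.5, 96.4 and 41.1 CPM in replicates 1 to 5 of 36 months and at 166, 55.2, 19.6, 19.8 and 43.9 CPM in those of 42 months. A single library is high, and the other 4 of 36 months overlap those of 42 months. All 6 members, miR-141, miR-200a, miR-200b, miR-200c, miR-429a and miR-429b, were lower at an unadjusted p under 0.05, with log2 changes from -4.26 to -2.98 and a median of -3.39. Without replicate 1 of 36 months the change was 0.02 for miR-200a, 0.12 for miR-141 and 1.13 for miR-429b, all of them above 0, and -0.24 for miR-200c. The summed family gave a two-sided exact permutation p of 0.325 (adjusted p = 0.651 over 14 marker lists).

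The clustered miR-182, miR-183 and miR-96, which mark sensory cells, showed the same library. miR-182 was at 16664 CPM in replicate 1 of 36 months and at 624 to 2686 CPM in the other 4, against 1573 to 2335 CPM at 42 months. All 3 members were lower at an unadjusted p under 0.05, with a median log2 change of -1.56. Without that library the summed cluster was higher at 42 months, by 0.17 on the log2 scale (two-sided exact permutation test, adjusted p = 0.921 over 14 marker lists). At 36 months replicate 3 then summed to 680 CPM and replicates 2, 4 and 5 to between 1997 and 2906 CPM, against 1704 to 2664 CPM at 42 months. The part of olfactory or other sensory tissue in replicate 1 of 36 months was not tested.

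Of the skin list, which holds miR-205, miR-203a and miR-203b, none was called, and 1 member, miR-203a, had an unadjusted p under 0.05. miR-203a, which drives differentiation of epidermis, was at 57.4, 31.7, 19.4, 47.0 and 18.2 CPM at 36 months and at 14.4, 12.8, 8.29, 3.94 and 15.8 CPM at 42 months. The groups do not overlap, and on the log2 scale the change was -1.66 (SE 0.72, edgeR adjusted p = 0.282). It was -1.40 after the 7 libraries rich in epithelial miRNAs were left out (edgeR adjusted p = 0.334). The 3 members had a median log2 change of -1.37, and their sum lay between 282 and 1109 CPM at 36 months and between 57.1 and 471 CPM at 42 months (two-sided exact permutation p = 0.0556, adjusted p = 0.259 over 14 marker lists). The highest sum is again that of replicate 1 of 36 months, in which miR-205 alone was at 754 CPM. Without that library the highest sum of 36 months was 610 CPM, the median log2 change was -0.82 and none of the 3 had an unadjusted p under 0.05 (two-sided exact permutation test of the sum, adjusted p = 0.370 over 14 marker lists). Those 7 libraries were picked after the data were seen, as all whose summed miR-200 or skin miRNAs exceeded 2000 CPM. They are 3 of 6 months, 3 of 12 months and replicate 1 of 36 months, which leaves 4 libraries of 36 and 2 of 6 months.

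**Figure D4:**
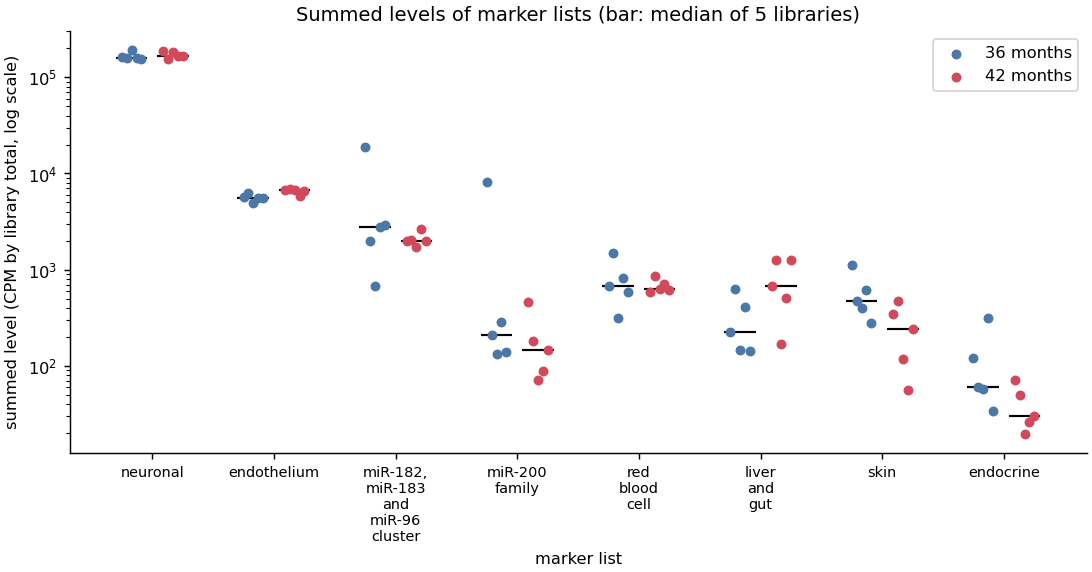
Summed level of 8 marker lists in each library of 36 months (blue) and 42 months (red), in CPM by library total on a log axis, with bars at the medians of 5 libraries. The neuronal sums lie between 153736 and 189756 CPM in all 10 libraries, while the miR-200 family and the cluster of miR-182, miR-183 and miR-96 are high in 1 library of 36 months.

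None of the 14 marker lists passed the adjusted threshold between the ages, the lowest adjusted p being 0.222 for endothelium. A list standing alone could not have passed. The smallest possible exact permutation p, 0.00794, stays above 0.05 after adjustment over 14 lists, unless several lists come near it together. With a library left out there are fewer splits, and the limit is no lower. These tests therefore do not show that the summed lists were kept. The neuronal list, 16 miRNAs led by miR-128 and miR-9, had 12 level members, 11 higher and 5 lower, and a median log2 change of 0.03 against -0.03 over all tested miRNAs. Of the oligodendrocyte pair, miR-219 had a log2 change of 0.13 and miR-338 of -0.13, and both were level. The 4 mural and mesenchymal miRNAs were all lower, with a median of -0.30, from -0.12 for miR-145 to -0.73 for miR-199, none at an unadjusted p under 0.05 (two-sided exact permutation p of their sum 0.0476, adjusted p = 0.259 over 14 marker lists). Without replicate 1 of 36 months all 4 were still lower, with a median of -0.18 and a lowest change of -0.32. The log2 change of their sum then went from -0.19 to -0.24 (two-sided exact permutation test, adjusted p = 0.111 over 14 marker lists).

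Blood miRNAs gave no clear difference. The erythroid miR-144 and miR-451 were lower by -0.46 and -0.14 on the log2 scale, and both were highest in replicate 2 of 36 months, with 268 and 1202 CPM. Of the 4 leukocyte miRNAs, miR-142a, miR-142b, miR-150 and miR-223, 2 were level and the median was -0.13. The inflammation-linked miR-21, miR-146a, miR-146b and miR-155 had 3 lower members and 1 higher, miR-146b, with a median of -0.33.

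Markers of other tissues were likewise mixed. The pancreatic miR-216a, miR-216b and miR-217 were all level, between -0.08 and 0.00. The 6 muscle miRNAs had 2 level members and a median of -0.04. The endocrine miR-375, found in pituitary and pancreatic islets, was at 127.6, 59.6, 59.5, 305 and 35.4 CPM at 36 months and 71.8, 48.2, 20.7, 26.4 and 30.6 CPM at 42 months, a log2 change of -1.57 (SE 1.02, edgeR adjusted p = 0.562). Of the eye and choroid plexus pair, miR-204 had a log2 change of 0.16 and was level, and miR-184 had -0.84 (interval -1.88 to 0.19).

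The miRNAs encoded in Hox clusters, which mark hindbrain and spinal cord, varied too much between libraries to be placed. None of the 7 tested members was level, 6 were higher and 1 lower, and the median was 0.36. The eighth member, miR-196d, had too few counts. Their sum was 19540, 24044, 2721, 25866 and 41868 CPM in replicates 1 to 5 of 36 months and 28742, 38116, 22626, 31788 and 38367 CPM in those of 42 months. Replicate 3 of 36 months is far below every other library. Without it the 36-month range of 19540 to 41868 CPM encloses that of 42 months, 5 members were higher and 2 lower, the median was 0.21 and still none was level. The part of hindbrain in each sample was not tested.

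Among the families found throughout the body, counts of level members stand beside a background of 59.9% level over all tested miRNAs and 85.3% over those at 1000 CPM or more. All 8 members of the miR-15, miR-16 and miR-457 family, repressors of cell-cycle genes, were level, with a median of -0.01, but 5 of 8 were with either replicate 1 or replicate 3 of 36 months left out. All 8 of the miR-130, miR-301 and miR-454 family were level (median 0.00), as were all 5 of the miR-99, miR-100 and miR-125 families (median 0.08), all 3 of the miR-181 family (median -0.01), both miR-26 miRNAs (median 0.04), both miR-101 miRNAs (median 0.06) and the activity-induced miR-132 and miR-212 (median 0.12). Of the miR-30 family 4 of 5 were level, among them miR-30d, whose interval from -0.10 to 0.10 was the narrowest of all.

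The let-7 family, which rises as cells differentiate, had 9 of 10 level members and a median of -0.11. let-7d and let-7h were lower at an unadjusted p under 0.05, by -0.16 and -0.21. The miR-17-92 cluster and its paralogs, linked to proliferation, had 11 of 15 level members and a median of -0.03. Of the miR-29 family, repressors of collagens, miR-29a was level with -0.07, and miR-29b could not be placed with -0.33 (interval -0.77 to 0.11).

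Other families were mixed. Of the miR-23, miR-24 and miR-27 clusters 4 of 8 were level, with miR-23b higher and miR-27c lower (-0.54) at an unadjusted p under 0.05. In the miR-34 family, which p53 induces in mammals, miR-34a was level with 0.03, and miR-34b and miR-34c could not be placed. miR-221 and miR-222a were level, and miR-222b was lower by -0.78 (edgeR adjusted p = 0.268). Of the 4 embryonic miR-430 miRNAs only miR-430b was tested, at no more than 2.59 CPM. The pair miR-462 and miR-731, described in fish as induced by low oxygen, had log2 changes of -0.63 (edgeR adjusted p = 0.282) and -0.59 (edgeR adjusted p = 0.330). miR-462 was at 4186 to 8510 CPM at 36 months and 3166 to 4232 CPM at 42 months.

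Libraries of 42 months resembled one another somewhat more closely by the SD of each miRNA, but not by the correlation between libraries. The median SD of log2 levels between the 5 libraries was 0.27 at 36 months and 0.22 at 42 months, and the SD was larger at 36 months for 130 of 197 miRNAs. With any 1 of the 10 libraries left out it was larger at 36 months for at least 115. This is a description with no test over miRNAs. Across all 197 miRNAs, the Pearson correlation of log2 levels had a median of 0.979 between libraries of 36 months (10 pairs), 0.975 between those of 42 months (10 pairs) and 0.964 across the ages (25 pairs), where the points share depth and miRNA make-up and miRNAs are not independent replicates.

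To ask whether miRNAs that change earlier in adult life go on changing at its end, the last step was set beside 24 against 6 months. The 2 steps share no library, and no transgene is named at 6 or 24 months. Each title of 6 months holds 2 numbers where those of 24 months hold 1, and whether these libraries pool 2 fish is not stated, so that age and this difference cannot be told apart in the earlier step. In the earlier step 63 of 197 miRNAs were called (32%), 27 higher and 36 lower at 24 months. Scaling by library totals alone gave 8 higher and 54 lower, and upper-quartile scaling 6 higher and 27 lower. Without the 7 libraries rich in epithelial miRNAs, which leaves 2 libraries of 6 months, 9 were called.

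None of these 63 was called between 36 and 42 months, against 0.508% of all tested miRNAs, and 33 of them were level, or 52.4% against 59.9% of all tested. Of the 27 that were higher at 24 months, 21 were level in the last step (77.8%), 15 were above 0 and 12 below, with a median log2 change of 0.07 against 0.43 in the earlier step. Of the 36 that were lower at 24 months, 12 were level (33.3%), 34 were below 0 and the median was -0.32 against -1.15 in the earlier step. The share of level miRNAs differs with abundance, at 85.3% for 1000 CPM or more and 4.8% under 10 CPM. The higher and lower sets were not matched for abundance, so their shares cannot be compared directly. Without replicate 1 of 36 months the lower set held 37 miRNAs, of which 26 were below 0, with a median of -0.07. Over all 197 miRNAs the log2 changes of the 2 steps had a Pearson correlation of 0.77, which was 0.17 without that library and -0.02 without the 7 libraries rich in epithelial miRNAs. It is given as a description, since miRNAs are not independent replicates.

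The difference between the steps, tested in the same fit, was called for 12 of 197 miRNAs (6.09%), 5 with a higher and 7 with a lower change in the last step. As the steps differ in length, these are not differences in rate. The line changes only within the last step, and the numbers per title only within the earlier step. Age, line and the numbers per title therefore cannot be told apart in this difference. The clearest were 3 members of the miR-15, miR-16 and miR-457 family. miR-15c fell from 66.1 ± 5.63 CPM at 6 months to 19.2 ± 4.79 CPM at 24 months (SD, n = 5), a log2 change of -1.78. From 36 to 42 months it went from 21.1 ± 4.65 to 19.8 ± 3.43 CPM (SD, n = 5), a log2 change of -0.09. Its steps differed by 1.69 (SE 0.29, edgeR adjusted p = 0.00144). Those of miR-457a differed by 1.23 and those of miR-15b by 1.08 (edgeR adjusted p = 0.00615 for both). All 3 were called lower at 24 than at 6 months, and all 3 were level from 36 to 42 months.

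For miR-29a and miR-29b the earlier change was in the opposite direction, and neither was called between 36 and 42 months. miR-29b was called higher at 24 than at 6 months, with 187 ± 23.2 and 317 ± 69.1 CPM, and went from 488 ± 171 to 389 ± 76.7 CPM between 36 and 42 months (SD, n = 5). Its steps differed by -1.09 (SE 0.30, edgeR adjusted p = 0.0359) and those of miR-29a by -0.63 (SE 0.14, edgeR adjusted p = 0.0104). The other 7 were miR-216a with 0.69 and miR-153c with 0.58, and let-7c, let-7h, miR-103, miR-27b and let-7d with -0.48 to -0.33. Of the 12, 11 were level between 36 and 42 months, and miR-29b was the exception. miR-15c, miR-15b and miR-457a kept the call in all 18 alternative settings. The other calls were less stable, being lost in 1 of 18 for miR-29a and miR-216a, 6 for let-7h and miR-103, 8 for miR-153c, 9 for miR-29b, 11 for let-7d and 13 for let-7c and miR-27b. Scaling by library totals moved the median difference of all miRNAs from -0.02 to 0.16. Under it let-7c stood at -0.31, let-7h at -0.24, miR-103 at -0.23, miR-27b at -0.19 and let-7d at -0.14, none of them called.

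**Figure D5:**
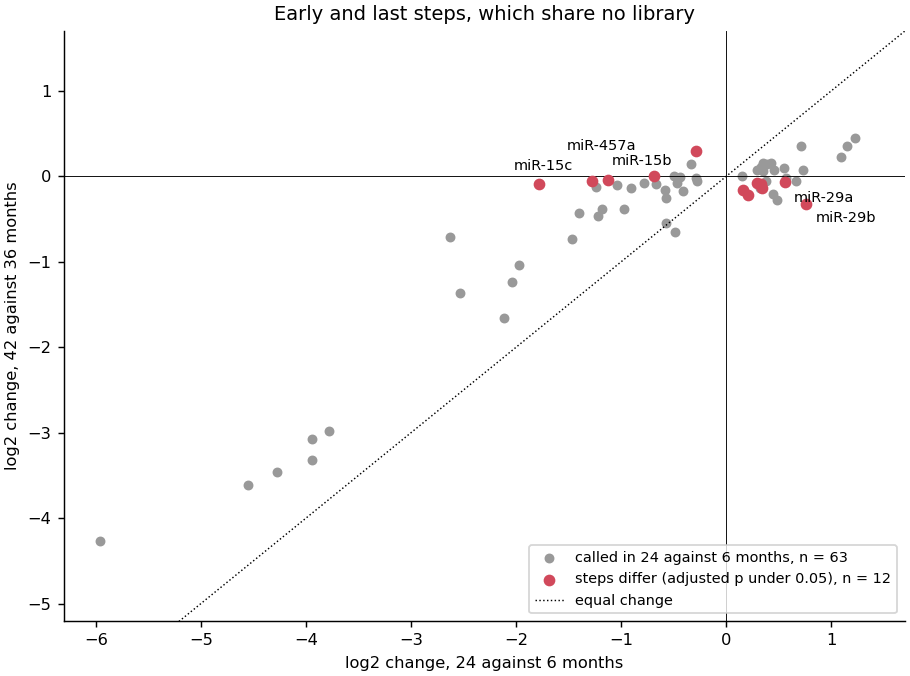
Log2 change of 42 against 36 months (vertical axis) against that of 24 against 6 months (horizontal axis) for the 63 miRNAs called in the earlier step (grey) and the 12 whose steps differ at an adjusted p under 0.05 (red). On the dotted line both changes are equal. The 6 points at the lower left, at -2.98 or lower on the vertical axis, are the miR-200 family, and miR-15c, miR-457a and miR-15b lie near 0 on the vertical axis after changes of -1.78 to -1.12 in the earlier step.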

How the data were processed

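Small RNA libraries were made from total RNA with the TruSeq small RNA kit, per the labels' protocols, and the tools in the submitters' processing notes are BWA 0.7.12-r1039, CASAVA 1.8.4, SAMtools 1.3.1-9 and Trimmomatic 0.36. Which build, annotation and counting program were used, and how reads with several matches were handled, was not given in the sources used here. Raw whole-number counts per hairpin were deposited by the authors for 25 libraries, with both arms of a hairpin in 1 count. All 25 columns were used and 0 were left over. Copies were summed by name. In 32 of the 51 names with several copies the copies held totals within 10% of the highest. Whether a read was counted at each copy is not known, so the levels, shares and abundance ranks of such names are uncertain. Members with near-identical mature sequences (for instance within let-7, miR-200 with miR-141 and miR-429, miR-126, miR-135, miR-203, miR-29 or miR-10) can share reads, so that their separate values are uncertain.

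The test was edgeR's quasi-likelihood F test (version 4.0.16, R 4.3.3), with TMM factors and a robust fit on all 25 libraries, after filterByExpr with a count minimum of 10 and a total minimum of 15. Standard errors come from the information matrix and the squeezed dispersion. Benjamini-Hochberg adjustment ran over the 197 tested miRNAs. Marker list sums, in CPM by library total, were tested as log2(CPM + 1) by two-sided exact permutation over 252 splits (smallest possible p 0.00794) and adjusted over 14 lists. Alternatives used DESeq2 1.42.0 and limma 3.58.1 (voom), other scalings, filters and margins, single hairpins, the 10 libraries alone and each library left out. The steps were tested on simulated data. No 2 libraries of an age agreed within sampling noise, the lowest chi-square per degree of freedom being 364.

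The members and the 32 miRNA lists were chosen with earlier results of these data known. miRNAs named are those called, the 10 with the smallest p in each direction, the 12 most abundant, the 10 most abundant level ones, up to 20 of at least 100 CPM called in 24 against 6 months, and list members. miR-735, miR-462 and miR-731 are named outside this rule. Neighbouring hairpins are those within 10000 bases in the RefSeq gene table of assembly GRCz12tu, in which 319 of 346 entries were matched. No batch is given in the labels.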

Additional observations from a re-analysis of the deposited data

Results flagged for a closer look

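Among 130 groups of 5 libraries tested, 18 held a library whose gap to its nearest neighbour exceeded 0.71 of the group's range. The groups overlap, since members of a family and their sum were counted apart, so that the 18 cannot be set against a rate expected by chance. In replicate 1 of 36 months miR-200a stood at 2789 CPM, miR-141 at 2232, miR-429a at 2040, miR-200c at 775, miR-200b at 367 and miR-205 at 754, with a summed miR-200 family of 8123 CPM and a summed cluster of miR-182, miR-183 and miR-96 of 18844 CPM. Replicate 1 of 42 months was the highest of its age in miR-200a (166 CPM), miR-429a (97.1), miR-200b (18.6) and the summed miR-200 family (462). The oligodendrocyte sum was lowest in replicate 1 of 36 months, at 14409 CPM.

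Replicate 3 of 36 months had the highest total, 20924118 counts, and the highest neuronal sum of its age, 189756 CPM. Replicate 2 of 42 months was the lowest of its age for miR-26b (26824 CPM) and miR-29b (255 CPM), and replicate 1 of 42 months the highest for miR-22a (24807 CPM).

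The step from 36 to 42 months differed from the longer step from 6 to 24 months, by the test of the difference itself, for 12 miRNAs. Age, line and the numbers per title cannot be told apart in it. Only miR-15c, miR-15b and miR-457a kept the call in all 18 alternative settings. The difference on the log2 scale was 1.69 for miR-15c, 1.23 for miR-457a, 1.08 for miR-15b, 0.69 for miR-216a and 0.58 for miR-153c. It was -1.09 for miR-29b, -0.63 for miR-29a, -0.48 for let-7c, -0.42 for let-7h, -0.42 for miR-103, -0.37 for miR-27b and -0.33 for let-7d.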

How the results depend on the processing

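The count of miRNAs called between 36 and 42 months, 1 in the chosen fit, was 0 with the 10 libraries alone, 12 by DESeq2's Wald test, 3 without the libraries rich in epithelial miRNAs (an alternative chosen after seeing the data) and 0 to 3 with a library left out. It was 1 under the other scalings and filters, limma-voom and single hairpins. Level miRNAs numbered 55 with a narrower margin, of 0.32 on the log2 scale. Of the earlier step's calls, of which 33 of 63 were level, 13 of 33 were level with upper-quartile scaling and 8 of 9 without the epithelial-rich libraries, and 7 of 71 were called in the last step by DESeq2's Wald test and 0 to 1 with a library left out. The steps differed for 3 miRNAs with upper-quartile scaling and for 6 (without replicate 1 of 42 months) to 21 (without replicate 1 of 36 months) with a library left out. Without replicate 1 of 36 months, miR-141 and miR-200a turned to 0.12 and 0.0230, from as low as -3.45 and -4.09 with another library left out, and to 0.13 and 0.0292 without the epithelial-rich libraries. With a library left out, sums turned sign for oligodendrocyte (-0.17 to 0.0120), red blood cell (-0.30 to 0.26), leukocyte (-0.0862 to 0.0911), muscle (-0.0351 to 0.0633), pancreas (-0.0613 to 0.0408, and -0.00555 with TMM-scaled CPM) and sensory (-1.02 to 0.17) miRNAs, and the difference in total count ranged from -1619855 to 2301845. The number of detected miRNAs differed without replicate 5 of 36 months (adjusted exact permutation p = 0.0476). Apart from the left-out library, the cause was not tested. No paired analysis was possible because the labels carry no replicate numbers shared between the ages. Of 21 miRNAs under 10 CPM 1 was level, and what depth adds to their error was not tested.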

Other observations

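miR-2185 fell into separate levels over the whole series. In 5 of the 25 libraries it lay between 10.4 and 38.2 CPM, and in the other 20 between 231 and 571 CPM, with none between. The 5 low libraries are 2 of 12 months and 3 of 36 months, and none of 6, 24 or 42 months. Its 3 hairpin copies hold nearly equal counts, so that no copy can be singled out.

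miR-735 had no count in 2 libraries of 42 months and at least 1125 counts in each of the other 23 libraries.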
